A study of Mus musculus with 6 samples.

Results

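Secreted Wnt antagonists are proteins that cells release to keep Wnt ligands from signalling. The 10 genes described here are *Frzb*, *Sfrp1*, *Sfrp2*, *Sfrp4*, *Sfrp5*, *Dkk1*, *Dkk2*, *Dkk3*, *Wif1* and *Notum*. They were chosen by name, through the symbol that the annotation gives each Ensembl identifier, and they are 10 of the 47729 genes in the deposited table. Each of the 10 averaged 20 reads or more per library, as did 19308 of the 47729 genes, and only these 19308 were tested.

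Wnt ligands bind Frizzled receptors together with the co-receptors LRP5 and LRP6, and in the canonical branch of the pathway this stabilizes β-catenin, which enters the nucleus and acts with TCF and LEF factors on target genes. The antagonists act outside the cell at different points. The secreted frizzled-related proteins (sFRPs, which include FRZB) carry a cysteine-rich domain like that of the receptors and bind Wnt ligands. WIF1 also binds the ligands, through a domain of another kind. DKK1 and DKK2 bind LRP5 and LRP6, whereas DKK3 is a divergent member of its family. NOTUM is an enzyme that removes the lipid that Wnt ligands need for binding Frizzled. In the growth plate, the cartilage at the end of a growing long bone, Wnt signalling bears on how fast chondrocytes mature and on the formation of bone by osteoblasts.

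RNA was sequenced from 3 Control mice and 3 LS1 mice, all aged 14 days. LS1 is 1 of the Longshanks lines, bred over generations for long tibiae at a given body mass, and Control is a random-bred line named ICR in the labels. The labels give no transgene and no treatment for any mouse, and the mice came from different families. Each library is 1 mouse, made from the polyadenylated RNA of its left and right proximal tibial epiphyses together, so cartilage, bone and marrow contribute to every value.

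The recovered reads per library ran from 68803249 to 76581954 in Control and from 82227711 to 88745366 in LS1. Each LS1 library was thus deeper than each Control library, which the division by size factors evens out. In a principal component analysis LS1 replicate 3 lay at -4.29 on the first axis, between the Control libraries (-41.51 to -22.08) and the other LS1 libraries (43.67 and 50.06). Markers of cartilage, bone, osteoclasts and blood-forming cells were present in all libraries, with 0 genes at 0 in the 17 chondrocyte, 9 osteoblast, 8 osteoclast and 10 erythroid markers. Values are normalized counts, that is, reads divided by 1 size factor per library, and fold changes of LS1 over Control come from limma on log2(normalized count + 1).

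Between genes, levels can be compared only per length, so normalized counts were divided by the exonic length in kb. On this scale *Wif1* was the most abundant antagonist, at 7295 ± 877 normalized counts per kb in Control (SD, n = 3) and 7811 ± 503 in LS1 (SD, n = 3). In Control, 97.6% of the tested genes had a lower level per kb than *Wif1*. *Frzb* came next at 2759 ± 619 in Control and 5261 ± 928 in LS1, followed by *Dkk1* at 1821 ± 115 and 1804 ± 433. In Control the order then ran *Dkk3* (1248 ± 36.9), *Sfrp4* (1129 ± 170), *Sfrp5* (882 ± 138), *Sfrp1* (499 ± 12.6), *Notum* (307 ± 55.7), *Sfrp2* (129 ± 11.9) and *Dkk2* (61.5 ± 16.01). The libraries of neighbours in this order overlapped for *Dkk3* with *Sfrp4* and for *Sfrp4* with *Sfrp5*, so those levels were not told apart, and the other neighbours did not overlap. In LS1, *Sfrp5* (1139 ± 82.8) stood above *Sfrp4* (1019 ± 52.7), and *Sfrp1* stood at 899 ± 166 with libraries that overlapped those of *Sfrp4*. *Dkk1* overlapped *Dkk3* (1332 ± 19.8) in LS1, and *Notum* (258 ± 113) overlapped *Sfrp2* (151 ± 77.0). *Dkk2* was lowest in both groups, with 73.3 ± 11.4 in LS1.

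**Figure D1:**
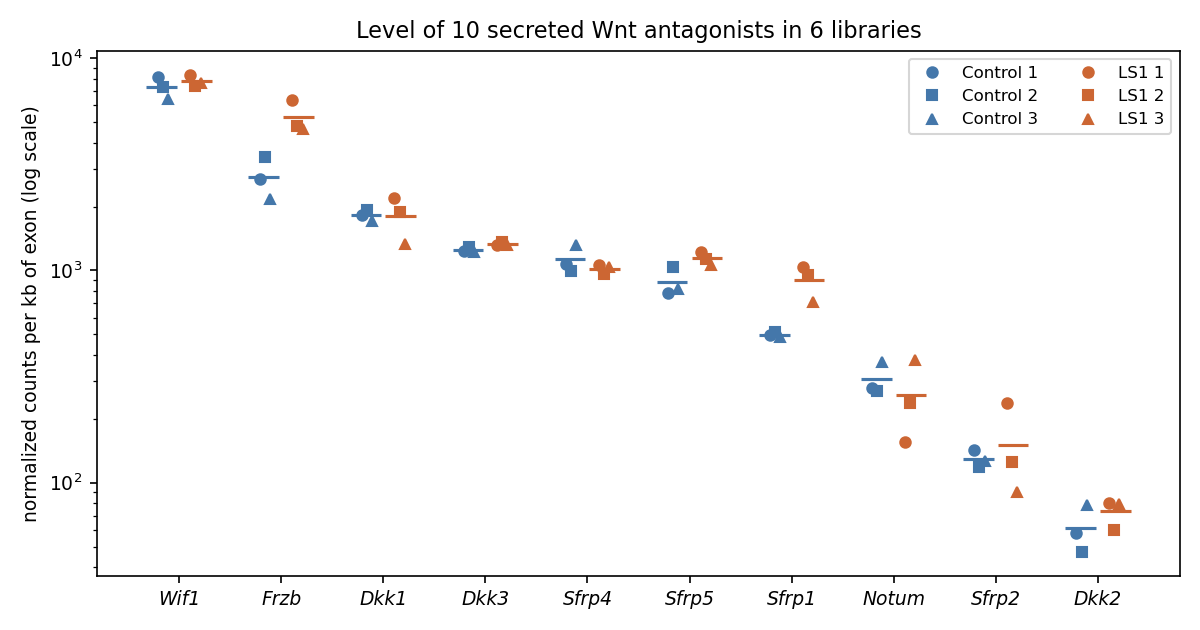
Level of each antagonist in normalized counts per kb of exon (log axis) in the 3 Control libraries (blue) and the 3 LS1 libraries (orange), with the symbol shape for the replicate number and a line at each group mean. *Wif1* is highest in both groups, and all LS1 points lie above all Control points for *Frzb*, *Sfrp1*, *Sfrp5* and *Dkk3*.

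The question put to these libraries was which antagonists differ between the long-limbed line and Control. No antagonist passed an adjusted p of 0.05 from limma (0 of 10), a threshold that 0.0725% of all tested genes passed. At an unadjusted p under 0.05 from limma, 3 of 10 were higher in LS1 (*Sfrp1*, *Frzb* and *Sfrp5*), against 7.08% of the tested genes, and 0 of 10 were lower, against 5.86%. All LS1 libraries lay above all Control libraries for 4 of 10, the same 3 genes and *Dkk3*, against 10.3% of the tested genes, and below them for 0 of 10, against 8.94%. DESeq2, the count test of the study, run with default settings on the recovered reads, called 2 of 10 higher (*Sfrp1* and *Frzb*), against 1.43% of the tested genes, and 0 of 10 lower, against 0.932%. edgeR called 0 of 10, against 0.0363% of the tested genes. The log2 fold change was above 0 for 7 of 10, with a median of 0.11, against 50.7% and a median of 0.0054 over the tested genes. *Frzb* and *Sfrp1* are also among the genes that the study picked from these same libraries for measurement by qPCR, so their direction here is not independent evidence.

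**Figure D2:**
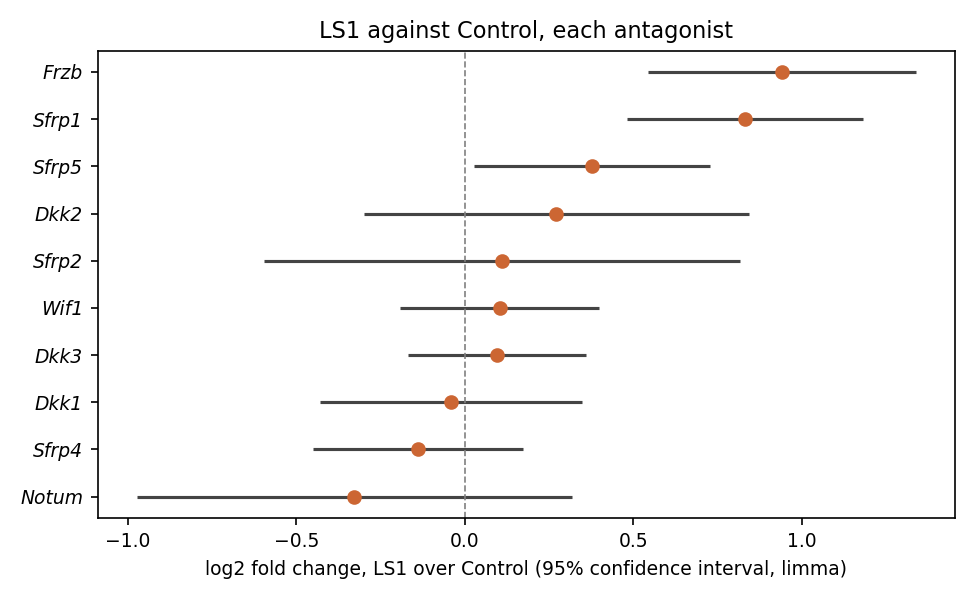
Log2 fold change of LS1 over Control from limma for each antagonist (points) with its 95% confidence interval (lines). The intervals of *Frzb*, *Sfrp1* and *Sfrp5* lie above 0, and the other 7 include 0.

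*Frzb* (ENSMUSG00000027004, also called *Sfrp3*) lies on chromosome 2 of GRCm38 from 80411970 to 80447625, on the minus strand, and its protein is best known from articular cartilage. In Control, 8708, 11039 and 7048 normalized counts of *Frzb* were found, against 20488, 15532 and 15070 in LS1. The groups did not overlap, and the lowest LS1 library stood above the highest Control library. The means were 8931 ± 2005 in Control (SD, n = 3) and 17030 ± 3003 in LS1 (SD, n = 3). This is a fold of 1.92 with a 95% confidence interval of 1.46 to 2.53, or a log2 fold change of 0.94 with a standard error of 0.18. The adjusted p was 0.120 from limma and 0.00119 from DESeq2, so the call depends on the test. A larger log2 fold change was found for 2.69% of the tested genes.

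*Sfrp1* (ENSMUSG00000031548) lies on chromosome 8 from 23411502 to 23449632, on the plus strand, and mice without it are known to have more trabecular bone. Its normalized counts were 2161, 2242 and 2136 in Control and 4515, 4156 and 3114 in LS1. The Control libraries were close together, the LS1 libraries were spread, and LS1 replicate 3 was nearest to Control without reaching it. The means were 2180 ± 55.2 in Control (SD, n = 3) and 3928 ± 727 in LS1 (SD, n = 3), a fold of 1.78 with a 95% confidence interval of 1.397 to 2.27. The log2 fold change was 0.83 with a standard error of 0.16, and the adjusted p was 0.120 from limma and 0.000773 from DESeq2. Without LS1 replicate 3, limma called both genes, with adjusted p = 0.00547 for *Sfrp1* and 0.0237 for *Frzb*, in a fit that called 1.68% of the tested genes. With each of the other libraries left out, neither was called, and the adjusted p from limma was 0.114 to 0.345 for *Sfrp1* and 0.136 to 0.293 for *Frzb*.

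*Sfrp5* (ENSMUSG00000018822) lies on chromosome 19 from 42197971 to 42202252, on the minus strand. Its normalized counts were 1495, 1976 and 1556 in Control and 2329, 2149 and 2016 in LS1. The groups did not overlap, although Control replicate 2 came close to LS1 replicate 3. The log2 fold change of 0.38 had a 95% confidence interval of 0.03 to 0.73, and the adjusted p was 0.349 from limma and 0.312 from DESeq2.

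The summed counts of chondrocyte markers separated the same libraries, whereas those of other cartilage lists overlapped. The hypertrophic chondrocyte markers summed to 768387 to 1137060 in Control and 972357 to 1107450 in LS1. For the articular and resting zone markers the sums were 12017 to 14439 in Control and 12716 to 20495 in LS1. Of 17 chondrocyte markers, 15 had a log2 fold change above 0, against 50.7% of the tested genes, with a median of 0.48. At an unadjusted p under 0.05 from limma, 9 of 17 were higher, against 7.08%, and 0 passed an adjusted p of 0.05, against 0.0725%. Their summed normalized counts were 2653190 to 3016210 in Control and 3370100 to 3891630 in LS1, a log2 difference of 0.34, and no marker was at 0. The 9 tendon and fibroblast markers summed to 250308 to 274713 in Control and 304922 to 335291 in LS1, whereas the 10 erythroid markers summed to 1742170 to 2265870 in Control and only 927217 to 1143950 in LS1. For the 8 B cell markers the sums were 46679 to 50297 in Control against 28588 to 44782 in LS1. Of these markers, 6 of 8 were lower at an unadjusted p under 0.05 from limma, against 5.86% of the tested genes. The 12 interferon-stimulated genes summed to 10304 to 17871 in Control, to 28353 and 47542 in LS1 replicates 1 and 2 and to 13607 in LS1 replicate 3, which was within the range of Control. In bulk tissue, more cells of a type and more RNA per cell cannot be told apart. The chondrocyte marker sum adds counts, so *Col2a1* weighs most, at 1481070 of 2809700 in the Control means. *Col2a1* overlapped between the groups, with a log2 fold change of 0.24. Single markers ran from -0.31 (*Sox6*) to 0.94 (*Hapln1*), the latter equal to the 0.94 of *Frzb*. Ratios to the sum are thus not ratios to each cartilage gene. Set against the chondrocyte markers, *Frzb* stood at 3.28, 3.66 and 2.55 counts per 1000 marker counts in Control and at 5.97, 3.99 and 4.47 in LS1. The groups still did not overlap, with a log2 difference of 0.60 (standard error 0.23) and an exact permutation p of 0.1, the smallest that 3 against 3 allows. *Sfrp1* stood at 0.815, 0.743 and 0.774 per 1000 in Control and at 1.32, 1.07 and 0.924 in LS1, again with no overlap and a log2 difference of 0.49. *Sfrp5* overlapped on this scale, with 0.594 ± 0.0527 in Control (SD, n = 3) and 0.610 ± 0.0641 in LS1 (SD, n = 3) and a log2 difference of 0.04. *Wif1* had a log2 difference of -0.24 per marker count (exact permutation p = 0.3). The part of tissue make-up in the higher counts of these genes was not tested beyond these ratios.

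**Figure D3:**
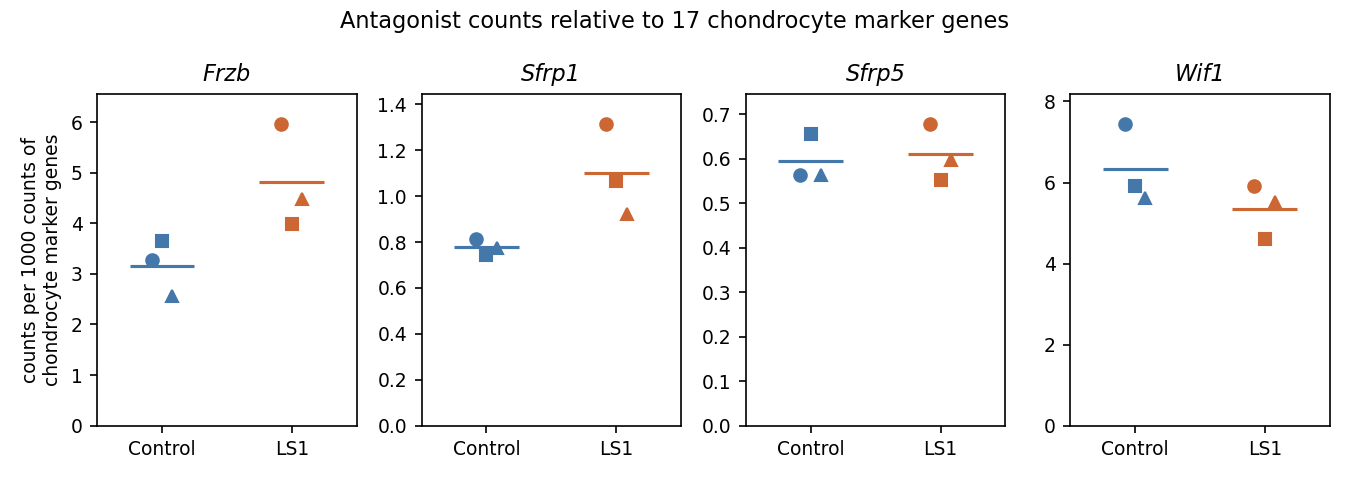
Counts of 4 antagonists per 1000 counts of the 17 chondrocyte markers in each library (points, blue for Control and orange for LS1, symbol shape for the replicate number) with a line at the group mean; each axis starts at 0. *Frzb* and *Sfrp1* do not overlap between the groups, whereas *Sfrp5* and *Wif1* do.

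The other sFRPs did not separate the groups. *Sfrp4* (ENSMUSG00000021319, chromosome 13 from 19623104 to 19632994, plus strand), whose loss in people gives the thin cortical bone of Pyle disease, had 4479, 4160 and 5521 normalized counts in Control and 4419, 4007 and 4348 in LS1. All LS1 libraries lay below 2 of the Control libraries, with 1 Control library among them. Its log2 fold change was -0.14 with a 95% confidence interval of -0.45 to 0.17 (adjusted p = 0.709 from limma). *Sfrp2* (ENSMUSG00000027996, chromosome 3 from 83766321 to 83774316, plus strand), an sFRP of mesenchymal cells, had 306, 255 and 273 in Control and 511, 270 and 194 in LS1. The LS1 libraries held both the highest and the lowest value, and the log2 fold change of 0.11 had an interval of -0.60 to 0.82 (adjusted p = 0.914 from limma). An exon of *Sfrp2* overlaps *Gm26771* on the opposite strand, which had at most 6.53 normalized counts in any library.

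Among the DKK genes no difference passed a test. *Dkk1* (ENSMUSG00000024868, chromosome 19 from 30545863 to 30549665, minus strand), an LRP5 and LRP6 inhibitor made by osteoblasts and osteocytes, had 4423, 4695 and 4137 normalized counts in Control and 5314, 4578 and 3239 in LS1. The LS1 libraries lay on both sides of Control. The log2 fold change was -0.04, with an interval of -0.43 to 0.35 and an adjusted p of 0.944 from limma. *Dkk2* (ENSMUSG00000028031, chromosome 3 from 132085292 to 132180304, plus strand) had 216, 175 and 292 in Control and 297, 223 and 295 in LS1, so that the groups overlapped. Its log2 fold change of 0.27 had an interval of -0.30 to 0.84 (adjusted p = 0.688 from limma).

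*Dkk3* (ENSMUSG00000030772, chromosome 7 from 112116017 to 112159057, minus strand) varied little among the mice. Its normalized counts were 4133, 4334 and 4107 in Control and 4440, 4551 and 4432 in LS1. Each LS1 library was above each Control library, but the fold was 1.07 with a 95% confidence interval of 0.889 to 1.28 and an adjusted p of 0.775 from limma. The residual SD between replicates was 0.0336 on the log2 scale, and 99.9% of the tested genes had a larger one. limma draws such a small SD towards that of the other genes. The interval is therefore wide beside this SD, although it is the narrowest among the antagonists on the log2 scale.

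*Wif1* (ENSMUSG00000020218, chromosome 10 from 121033960 to 121100650, plus strand), the most abundant antagonist, had 19769, 17829 and 15517 normalized counts in Control and 20307, 17927 and 18640 in LS1. The groups overlapped, with a log2 fold change of 0.10 and an interval of -0.19 to 0.40 (adjusted p = 0.779 from limma). *Notum* (ENSMUSG00000042988, chromosome 11 from 120653788 to 120661175, minus strand), a regulator of cortical bone thickness, had 670, 652 and 893 in Control and 375, 574 and 914 in LS1. LS1 held the lowest and the highest library, and the log2 fold change of -0.33 had an interval of -0.97 to 0.32 (adjusted p = 0.670 from limma). *Notum* shares exon positions with *Notumos* on the opposite strand, which had 52.5, 55.4 and 110.6 normalized counts in Control and 19.0, 30.5 and 76.5 in LS1. It also shares them with *Myadml2os*, which had 5.22 to 19.0 normalized counts. Whether the counting used strand is not given in the sources used here, so reads of these pairs may not be told apart.

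Summed per kb, the 10 antagonists reached 16720, 16965 and 14703 in Control and 21997, 18891 and 18353 in LS1. The groups did not overlap, with a log2 difference of 0.29 (standard error 0.10). The summed chondrocyte markers, added as counts and not per kb, had a log2 difference of 0.34 (standard error 0.09) between the same libraries. Without division by length, the log2 difference of the summed antagonists was 0.32. The sFRP genes summed to 5398 ± 601 in Control (SD, n = 3) and 8469 ± 1241 in LS1 (SD, n = 3), a log2 difference of 0.65. The DKK genes overlapped, with 3130 ± 134 in Control (SD, n = 3) and 3209 ± 436 in LS1 (SD, n = 3). Without *Frzb* and *Sfrp1* the summed level overlapped as well, with a log2 difference of 0.08 (standard error 0.07). These genes had the largest log2 fold changes of the 10, so a smaller remainder follows from taking them out.

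*Frzb* held a larger part of this pool in each LS1 library than in any Control library. Its share of the summed level per kb was 16.1%, 20.1% and 14.8% in Control and 28.8%, 25.4% and 25.4% in LS1. No Control library reached an LS1 library, and the exact permutation p of 0.1 is the smallest possible. The shares of *Sfrp1*, *Sfrp4*, *Dkk1*, *Dkk3* and *Wif1* had the same permutation p. Adjusted by Benjamini-Hochberg over the antagonists, it was 0.167 for each of these shares and that of *Frzb*. *Wif1* held 45.2% ± 3.08 in Control (SD, n = 3) and 39.7% ± 1.97 in LS1 (SD, n = 3), also without overlap, and the share of *Sfrp1* was 3.10% ± 0.195 in Control and 4.54% ± 0.592 in LS1. Shares of 1 pool are tied to each other, so that a larger share of *Frzb* lowers the others. The ratio of *Frzb* to *Wif1* per kb was 0.330, 0.464 and 0.341 in Control and 0.756, 0.650 and 0.606 in LS1. That of *Frzb* to *Sfrp1* overlapped, with 5.52 ± 1.099 in Control (SD, n = 3) and 5.90 ± 0.769 in LS1 (SD, n = 3).

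**Figure D4:**
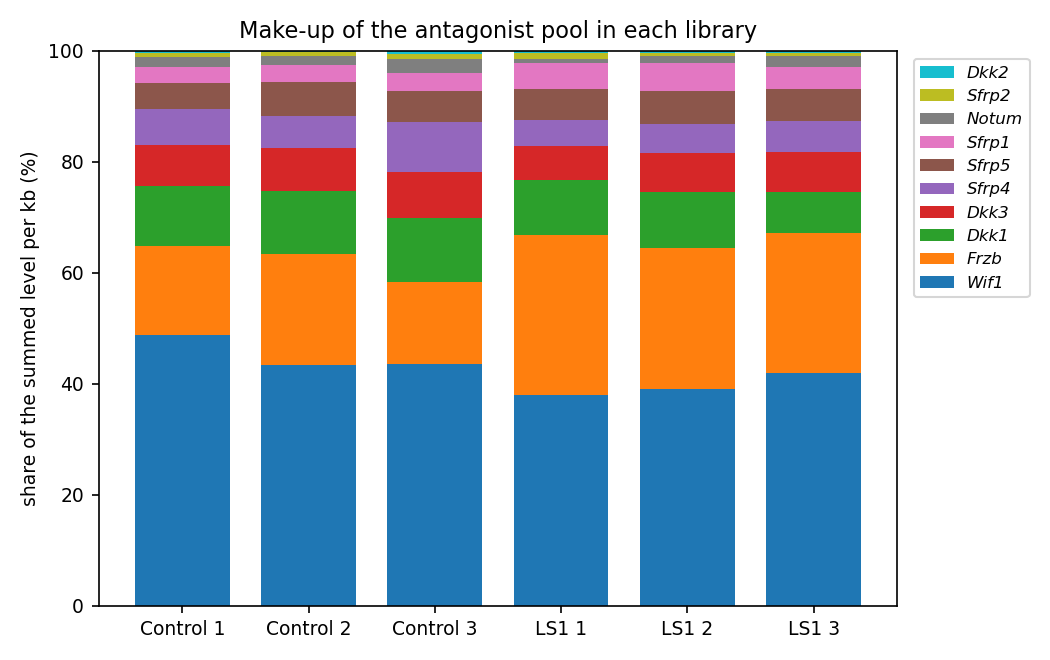
Share (%) of each antagonist in the summed level per kb of the 10 genes, 1 stacked bar per library. *Frzb* takes 14.8% to 20.1% of the pool in the Control libraries and 25.4% to 28.8% in the LS1 libraries, and *Wif1* is the largest share in each library.

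Set against the Wnt ligands, the summed antagonists overlapped between the groups. The sum takes in all 10 genes, also the DKK genes and *Notum*, which are not known as ligand-binding antagonists. The summed level per kb of the 19 listed Wnt ligands, tested or not, was 2327 ± 214 in Control (SD, n = 3) and 2499 ± 276 in LS1 (SD, n = 3). The ratio of summed antagonists to summed ligands was 7.62, 7.67 and 5.71 in Control and 9.73, 7.76 and 6.55 in LS1, so that Control replicates 1 and 2 lay above LS1 replicate 3. The log2 difference was 0.19, with a standard error of 0.22. It was 0.04 without LS1 replicate 1 and 0.33 without LS1 replicate 3.

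RefSeq promoter windows on GRCm38.p6, the 250 bases before the start site, were given for 6 of the 10 genes, *Frzb*, *Sfrp2*, *Sfrp5*, *Dkk1*, *Dkk2* and *Wif1*. The RefSeq start site lies inside the GENCODE gene for 3 of them, so that 229 of the 250 bases for *Frzb*, 169 for *Dkk1* and 44 for *Wif1* are within the gene as GENCODE draws it. *Sfrp1*, *Sfrp4*, *Dkk3* and *Notum* had none. They were searched on both strands for CTTTGA (the core of TCF and LEF sites), TGTGGT (the core of RUNX sites) and TATAAA. No match overlapped another. Such short motifs are common, and CTTTGA is in 13.83%, TGTGGT in 14.05% and TATAAA in 12.37% of 32851 windows. The windows of *Frzb*, at 64.4% G and C, *Sfrp2* at 63.6%, *Wif1* at 62.8%, *Dkk1* at 60.8%, *Sfrp5* at 59.6% and *Dkk2* at 55.6% were all above the median of 52.4%.

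*Frzb* holds 1 CTTTGA, which begins 95 bases before the start site, and *Dkk1*, itself known as a target of β-catenin, holds 2, at 174 and 117 bases. The 30 bases around each are shown because these are the windows of antagonists that hold the TCF and LEF core. They are read 5′ to 3′ on the strand of the gene (minus for both), and capitals mark the motif, read as TCAAAG where it lies on the other strand. The *Frzb* stretch and at least part of each *Dkk1* stretch lie inside the GENCODE gene. Such a match is a string of letters and not a shown binding site.
Frzb, chr2:80447474-80447503: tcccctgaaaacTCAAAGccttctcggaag
Dkk1, chr19:30549653-30549682: gaggggagagtgTCAAAGtcctccctgctt
Dkk1, chr19:30549596-30549625: ctcctcccaaagCTTTGAaatcccatcccg

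The *Sfrp5* window has no CTTTGA and 1 TGTGGT, in capitals, beginning 192 bases before the start site. It is shown whole, on the minus strand of GRCm38.p6, because the LS1 libraries of *Sfrp5*, like those of *Frzb*, lay above Control.
Sfrp5, chr19:42202253-42202502: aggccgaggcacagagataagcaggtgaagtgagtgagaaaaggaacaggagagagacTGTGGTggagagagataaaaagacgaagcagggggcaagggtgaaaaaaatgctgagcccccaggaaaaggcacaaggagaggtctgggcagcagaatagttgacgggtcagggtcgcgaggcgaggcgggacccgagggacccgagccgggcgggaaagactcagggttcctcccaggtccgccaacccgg
The remaining motifs were 1 TGTGGT (207 bases before the start) and 1 TATAAA (54 bases) for *Dkk1*, 1 TATAAA (32 bases) for *Dkk2* and 1 TATAAA (232 bases) for *Wif1*, and the *Sfrp2* window held none of the 3.

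The rest of the Wnt pathway was read through lists of its parts, in which 0 of 75 genes passed an adjusted p of 0.05 from limma. An unadjusted p under 0.05 was reached by 11 that were higher and 4 that were lower in LS1, or 14.7% and 5.33% of the 75, against 7.08% and 5.86% of all tested genes. DESeq2 called 3 of 75 higher and 1 of 75 lower, against 1.43% and 0.932% of all tested genes. The counts in the separate lists are small and are read against the same shares. Among 16 tested inhibitors other than the 10 antagonists, 3 were higher and 1 lower at the unadjusted threshold, and the median log2 fold change was 0.04. *Sostdc1*, which encodes a secreted inhibitor of Wnt and BMP signalling, had the largest increase there (1.49, adjusted p = 0.194 from limma and 0.0334 from DESeq2), at 41.4, 35.5 and 21.02 normalized counts in Control and 108.6, 76.6 and 87.7 in LS1. *Dkk4* had the largest decrease (-0.86, adjusted p = 0.380 from limma). *Kremen1*, the partner of DKK1 on the cell surface, had a log2 fold change of -0.03, and *Sost*, the LRP5 and LRP6 inhibitor of osteocytes, one of -0.40 (adjusted p = 0.567 from limma). *Kremen2* had 1 to 7 reads and was not tested.

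Of 19 Wnt ligands, 10 were tested, with 1 higher and 1 lower at the unadjusted threshold. *Wnt5a*, a non-canonical ligand of the growth plate, had 1033, 1013 and 1029 normalized counts in Control and 1760, 1291 and 1733 in LS1. Its log2 fold change was 0.62 (adjusted p = 0.228 from limma and 0.0301 from DESeq2). *Wnt1* was lowest at -1.13, from 50.5 ± 13.5 in Control (SD, n = 3) to 22.3 ± 4.48 in LS1 (SD, n = 3). Of the 7 R-spondins and LGRs, which strengthen Wnt signals, 2 were higher and 1 lower at that threshold, from *Rspo4* at -1.93 to *Lgr4* at 0.50. *Rspo4* had low values, 38.3, 87.6 and 86.3 normalized counts in Control and 11.4, 14.8 and 27.0 in LS1. Its adjusted p was 0.194 from limma and 0.0191 from DESeq2. Of 16 Frizzled receptors and co-receptors, 2 were higher and 0 lower, with *Ror2*, a receptor for WNT5A, at 0.52 and *Fzd10* at -0.32. *Lrp5* stood at 0.06 and *Lrp6* at 0.13.

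The 18 components of Wnt secretion and of the pathway inside the cell had a median of -0.0035, from *Axin1* at -0.31 to *Wls*, the carrier that brings Wnt ligands out of the cell, at 0.37. The 14 tested target genes had a median of 0.04, with 2 higher and 1 lower at the unadjusted threshold. *Axin2*, the target most often used as a readout of canonical signalling, had 400, 465 and 461 normalized counts in Control and 406, 664 and 463 in LS1. The groups overlapped, with a log2 fold change of 0.18 and a 95% confidence interval of -0.32 to 0.68. *Lef1* was at -0.37 (adjusted p = 0.370 from limma), *Tnfrsf11b*, the decoy receptor for RANKL, was highest at 0.56 and *Lgr5* lowest at -0.63.

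**Figure D5:**
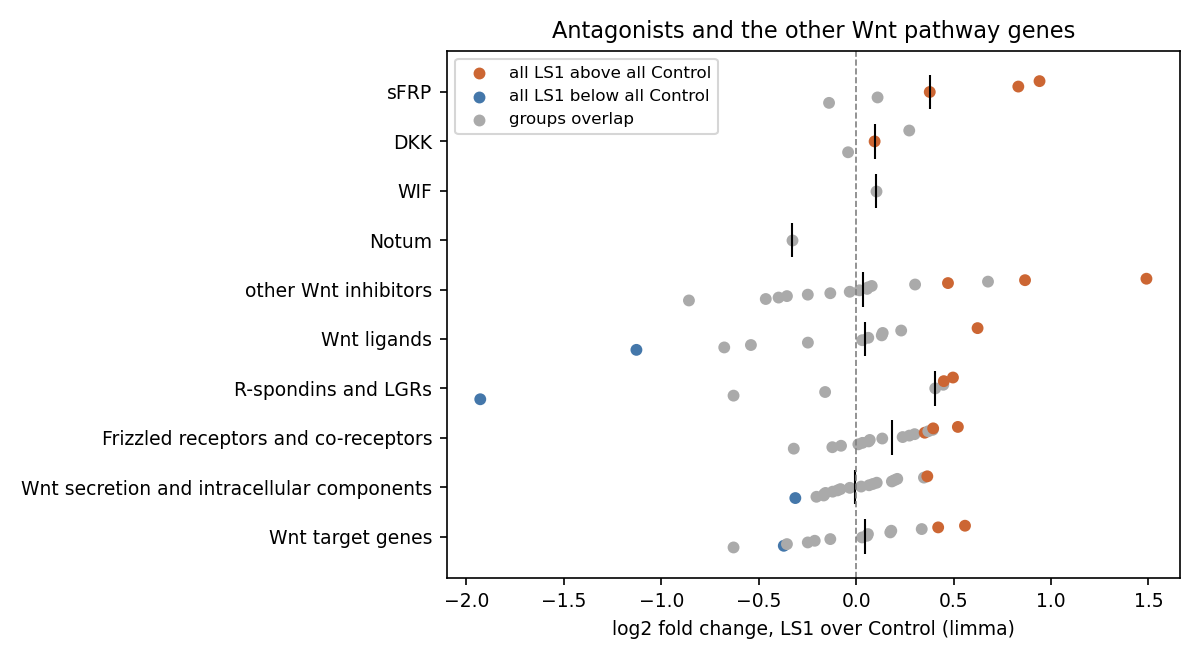
Log2 fold change of LS1 over Control (limma) for each tested gene of the antagonist classes and of 6 other Wnt pathway lists, with a bar at the list median. Orange and blue mark genes whose LS1 libraries lay all above or all below Control; *Sostdc1* is farthest right at 1.49 and *Rspo4* farthest left at -1.93.

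Across the 6 libraries, the antagonists were also compared with each other and with abundant genes by Pearson's r on log2 values, as a description in which the group difference has its part. *Frzb* had r = 0.94 with *Sfrp5* and 0.92 with *Sfrp1*, and *Sfrp5* had 0.93 with *Dkk3*. Other pairs ran in opposite directions, with r = -0.87 for *Sfrp2* and *Notum* and -0.66 for *Frzb* and *Sfrp4*. The genes most like *Frzb* were *Iqgap1* (0.997), *Rbpms* (0.994) and *Zfp521* (0.989), and those most like *Sfrp1* were *Cd44* (0.996), *Rdh10* (0.994) and *Rab32* (0.993). *Sfrp5* was nearest to *Snapc1* (0.991), *Tnfsf11* (0.984) and *Nacc2* (0.982). The genes named were picked as the highest of many candidates. Over the 6 libraries, 92 of 11388 genes with a mean of at least 500 normalized counts had r above 0.95 with *Frzb*.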

How the data were processed

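The polyadenylated RNA of 6 mice (3 Control, 3 LS1, aged 14 days) was sequenced. The authors used HISAT2 2.0.2 for mapping to GRCm38, featureCounts 1.4.6 for counting on the genes of Ensembl release 84, and DESeq2. The deposited signal per gene is the read count divided by 1 size factor per library, for 47729 genes. Whole reads were recovered by division (100% of values within 0.01 of a whole number). In Control replicate 1 a read is worth 1.01, and rounded values would look alike, so edgeR was also run without it.

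Groups came from the strain label, and each library is 1 mouse. Genes with a mean of at least 20 reads were tested (19308) by limma (version 3.58.1, under R 4.3.3) from log2(value + 1), using a variance trend and robust moderation, p-values two-sided and adjusted by Benjamini-Hochberg over all tested genes at 0.05. Fold changes on this scale understate those of low genes. edgeR 4.0.16 and DESeq2 1.42.0 on recovered reads, limma-voom, other scalings, filters and pseudocounts, a replicate block and each library left out in turn were alternatives. Exact permutation tests were two-sided. The scripts were tested on simulated data. Symbols and coordinates came from GENCODE M21 (99.1% of identifiers), and promoters from RefSeq.

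The genes, lists and tests were chosen with earlier results of these data known. All 10 antagonists are named, with the largest increase and decrease of each pathway list and *Axin2*, *Lef1*, *Wnt5a*, *Lrp5*, *Lrp6*, *Kremen1*, *Kremen2* and *Sost*. Likeness takes the 3 genes with the highest r. With 3 libraries per group, an exact permutation p cannot fall below 0.1. Counting error, from the mean reads, was 0.696% (*Wif1* in LS1) to 6.87% (*Dkk2* in Control). It was close to the SD between libraries for *Dkk3* in LS1 (1.43% against 1.49%) and *Sfrp1* in Control (2.22% against 2.53%).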

Additional observations from a re-analysis of the deposited data

How the results depend on the processing

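The number of genes called turned on the test: 14 with limma, against 7 with edgeR, 456 with DESeq2, 399 with DESeq2 and moderated fold changes, 8 with voom, 45 without the filter on reads, 9 with a minimum of 100 reads, 7 without robust moderation and 5 with edgeR without Control replicate 1. Scaled to the chondrocyte markers it was 1119, of which only 32 were higher in LS1. In that limma fit neither *Frzb* (adjusted p = 0.0711) nor *Sfrp1* (adjusted p = 0.0886) was called. Leaving out 1 library gave 5 to 324 genes, the highest without LS1 replicate 3. Of the 10 antagonists, DESeq2 called 2 in its default form (456 of 19308 tested genes) and 2 in its moderated form (399 of 19308). limma without the filter called 1 (*Frzb*, adjusted p = 0.0407), in a fit that called 45 of 38596 genes. Leaving out 1 library gave 0 to 2 antagonists. *Sfrp1* and *Frzb* were called without LS1 replicate 3, where 324 of 19308 genes (1.68%) were called. The cause was not tested.

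Over these alternatives *Sfrp1* stayed between 0.49 and 0.99 and *Frzb* between 0.60 and 1.11 on the log2 scale. Scaled to the chondrocyte markers, where the median of all tested genes moved to -0.34, *Sfrp2* (-0.23), *Dkk2* (-0.069), *Dkk3* (-0.25) and *Wif1* (-0.24) changed sign. With 1 library left out, *Sfrp2* ran from -0.28 to 0.42 and *Dkk1* from -0.20 to 0.16. *Notum* ran from -0.65 without LS1 replicate 3 to -0.01 without LS1 replicate 1, *Dkk2* from 0.10 to 0.47 without Control replicates 2 and 3, *Wif1* from 0.01 to 0.19 without Control replicates 3 and 1, and *Sfrp4* from -0.23 to -0.02 without Control replicates 2 and 3. None of these 4 was called in any of the fits. The differences in share, in percentage points, ran from -0.070 to 0.641 for *Sfrp5*, from -0.070 to 0.058 for *Dkk2* and from -0.226 to 0.068 for *Sfrp2*.

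Taking the letter in the library names as a replicate block left 12 genes called and 0 antagonists. Libraries with the same letter had correlations of 0.05, 0.02 and 0.22 of their deviations, and not each library correlated best with its own letter, so they were not taken as pairs.

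The 3 antagonists with the fewest reads had the widest 95% confidence intervals. On the log2 scale these reached up to 0.82 for *Sfrp2*, up to 0.84 for *Dkk2* and down to -0.97 for *Notum*. Their SD between libraries was above the counting error, as for *Sfrp2* (51.0% against 5.33%) and *Notum* (43.9% against 3.84%) in LS1. Changes as large as the bounds of these intervals are not excluded by the data of 3 mice per group.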
